A study of Homo sapiens with 12 samples.

Results

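The HOX genes are the homeobox transcription factor genes of the HOXA, HOXB, HOXC and HOXD clusters. All 39 rows of the deposited count table named by cluster letter and position number (HOXB7, HOXC13 and the like) were taken, of 59498 gene identifiers in all. Poly(A) RNA had been sequenced from SKOV-3, an established human ovarian adenocarcinoma line, and from its cisplatin-resistant derivative SKOV-3 CDDP. The 4 groups held 3 libraries each: resistant cells with a double knockout (dKO) of KDM5A and KDM5B, resistant cells without it, parental (cisplatin-sensitive) cells with the same dKO, and parental cells without it. KDM5A and KDM5B encode demethylases of lysine 4 on histone H3. All groups were grown in the same serum-containing medium, and the labels name no cisplatin in it. Columns of both groups without the knockout carry NT in their names, and the names do not explain it. How resistance was selected, and whether the knockouts are single clones or pools, is not given in the sources used here.

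HOX genes lie in order along their chromosomes, and in embryos the order sets where along the body axis each is active, with low position numbers anterior and high ones posterior. Polycomb and Trithorax proteins keep that state through cell division, and methylation of lysine 4 on histone H3 marks active HOX genes. In the mouse reproductive tract the posterior genes Hoxa9, Hoxa10, Hoxa11 and Hoxa13 pattern the oviduct, uterus, cervix and upper vagina in that order. HOX proteins bind DNA together with TALE homeodomain cofactors of the PBX, MEIS and PKNOX families.

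Total counts ran from 15659352 to 19706754 per library. Levels are CPM, counts scaled by the effective library size, or CPM per kb of exonic length where genes are set against each other. In the resistant background KDM5A measured 17.6, 14.8 and 12.0 CPM in dKO libraries, against 39.9, 39 and 33.4 CPM without the knockout. In the parental background it measured 22.5, 20.9 and 15.6 CPM in dKO libraries, against 30.9, 41.5 and 39.4 CPM without it, so every dKO library lay below the controls of its background. KDM5B averaged 56.7 CPM in resistant dKO cells, against 76.6 CPM in resistant cells, and 53.8 CPM in parental dKO cells, against 57.9 CPM in parental cells, and its groups overlapped in both backgrounds. Neither gene passed the test of the knockout: for KDM5A the log2 fold change was -1.34 ± 0.25 in resistant cells (adjusted p = 0.0524) and -0.92 ± 0.25 in parental cells. Of 12 epithelial ovarian carcinoma markers, between 8 and 12 reached a mean of 1 CPM in each group, and the lineage factor PAX8 averaged 195, 222, 326 and 281 CPM in resistant dKO, resistant, parental dKO and parental cells. Among those 12 markers 2 were higher and 5 lower in resistant cells among dKO libraries, and 2 higher (KRT8 and KRT18) and 6 lower without the knockout, where 23.9% and 28.0% of all genes passed; EPCAM, KRT19, WFDC2, MSLN and CLDN3 were lower in both comparisons. ERBB2, known to be amplified in SKOV-3, measured 811 to 1020, 690 to 1540, 798 to 4730 and 1840 to 10100 CPM per library in the same order of groups. The 6 leukocyte markers summed to 14.5 to 21.7, 11.0 to 15.1, 24.1 to 76.9 and 31.8 to 95.4 CPM per library in that order of groups. Of these 6 only the lysosomal macrophage marker CD68 reached 1 CPM, and it was lower in resistant cells, at -1.44 ± 0.48 among dKO libraries and -2.18 ± 0.49 without the knockout on the log2 scale. The first call was lost in 10 of 21 alternatives (adjusted p up to 0.194), among them the omission of any resistant dKO library, resistant library 2 or 3 or parental dKO library 3. PTPRC, CD3E and LYZ averaged at most 0.141 CPM in any group. The 6 endothelial markers summed to at most 3.26 CPM in any library, and of 4 neural markers 2 were tested and 0 called. No label tells if a group's libraries stem from independent cultures, so the p-values reflect library-to-library spread that could be technical.

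The HOXB cluster carried most of the HOX RNA. In GENCODE release 29 on GRCh38 the HOXB genes span chr17:48528526-48729178, the HOXC genes chr12:53938765-54056030 and the HOXD genes chr2:176092891-176190907. HOXB genes held 87.9% of the 133743 reads that fell on the 39 genes. Per length, the 8 highest means over the 12 libraries were all HOXB genes: HOXB7 at 56.7, HOXB2 at 39.2, HOXB6 at 28.7, HOXB9 at 25.9, HOXB8 at 23.1, HOXB3 and HOXB5 at 14.1 and HOXB4 at 12.3 CPM per kb. The next were HOXD9 at 7.61 and HOXD8 at 5.15, then HOXA5 at 3.15 and HOXC9 at 2.77. The ends of HOXB were low, with HOXB13, a prostate and hindgut gene, at 2.14 CPM per kb and a single read for HOXB1 in all libraries.

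Of the 39 genes 27 passed edgeR's filter on low counts and were tested: 8 of 11 HOXA, 9 of 10 HOXB, 5 of 9 HOXC and 5 of 9 HOXD genes. By position these were 8 of 12 anterior (positions 1 to 4), 9 of 11 central (5 to 8) and 10 of 16 posterior genes (9 to 13). The 12 that did not pass were HOXA4, HOXA7, HOXA11, HOXB1, HOXC4, HOXC5, HOXC11, HOXC12, HOXD1, HOXD10, HOXD11 and HOXD12, with between 1 and 56 reads over the 12 libraries. Of these, HOXB1, HOXC11, HOXC12 and HOXD12 had 10 reads or fewer.

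**Figure D1:**
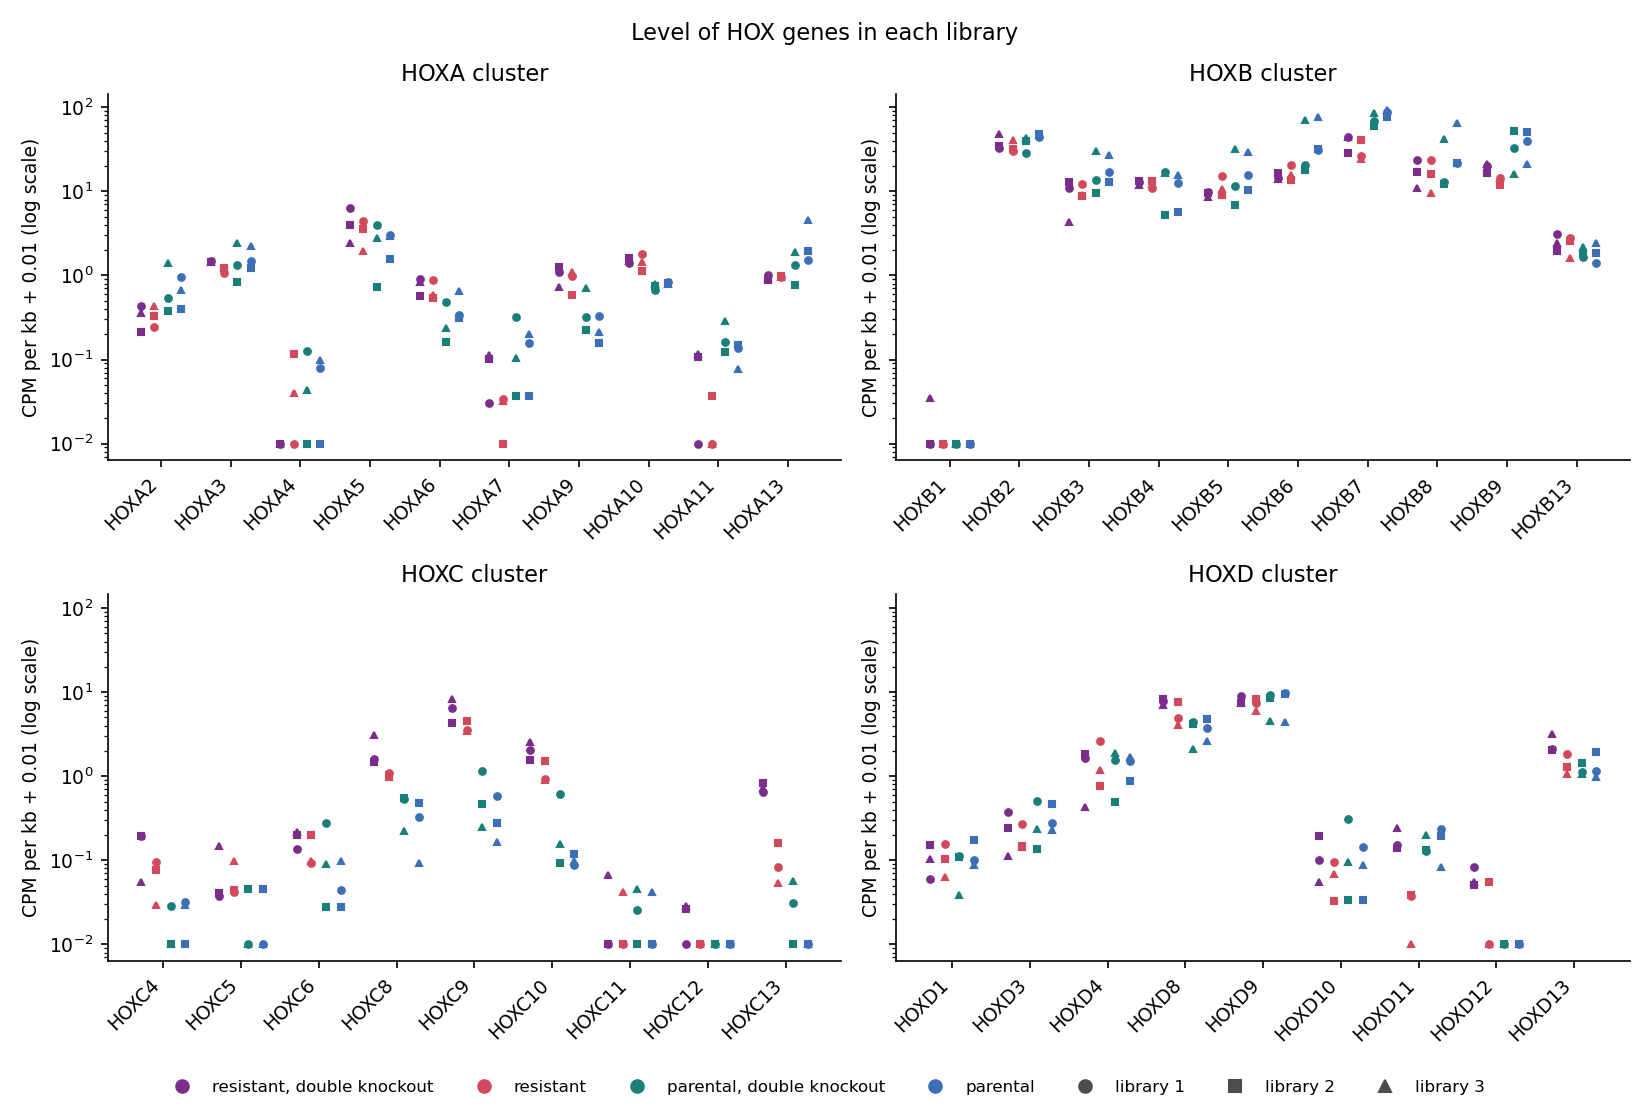
Level of HOX genes in each of the 12 libraries, in CPM per kb with 0.01 added, on a log axis, with genes ordered by position within each cluster. Colours are the 4 groups and symbols the library number; HOXB2 to HOXB9 sit highest, HOXC8, HOXC9, HOXC10 and HOXC13 are higher in both resistant groups, and points on the 0.01 line are libraries with no read.

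Resistant cells differed from parental cells in opposite directions in HOXC and HOXB. Without the knockout, 9 of the 27 genes tested passed an adjusted p of 0.05 in edgeR's quasi-likelihood test, with Benjamini-Hochberg adjustment over all genes tested: HOXC8, HOXC9, HOXC10, HOXC13 and HOXA9 were higher in resistant cells, and HOXB6, HOXB7, HOXB9 and HOXA13 lower. Over all 17947 genes tested 28.0% passed (15.2% higher and 12.8% lower), so the share of HOX genes called was close to the background. At an unadjusted p under 0.05 there were 10 (40.1% of all genes). In HOXC 4 of 5 genes were higher and 0 lower, and in HOXB 0 of 9 were higher and 3 lower. In HOXA 1 of 8 was higher and 1 lower, and in HOXD 0 of 5 passed. The HOXC13 call rested on 11 reads in resistant and 0 in parental libraries, and the gene passed the filter through resistant dKO libraries. HOXC6, HOXC10 and HOXA6 also passed it through resistant-background libraries, since a fit of the parental-background groups alone did not keep them. The HOXC counts and medians, here and among dKO cells, therefore depend in part on the filter. The median log2 fold change was 3.53 in HOXC, -0.93 in HOXB, 0.13 in HOXA and 0.04 in HOXD, against 0.04 over all HOX genes tested and 0.02 over all genes. By position no anterior gene passed of 8, 1 central gene was higher and 2 lower of 9, and 4 posterior genes were higher and 2 lower of 10. Without resistant library 2 the count was 4 (19.2% of all genes passed) and without parental library 3 it was 5 (25.4%), and no call changed direction.

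Among knockout cells the same comparison called 7 of 27, with 6 higher and 1 lower in resistant dKO cells, against a background of 23.9% (13.6% higher and 10.2% lower), again a share close to it. At an unadjusted p under 0.05 there were 11 (37.2% of all genes). The median log2 fold change was 2.85 in HOXC, -0.82 in HOXB, 0.67 in HOXA and 0.10 in HOXD, against 0 over all genes. The higher genes were HOXC8, HOXC9, HOXC10, HOXC13, HOXA10 and HOXD8, and the lower gene was HOXB7. The count was 4 without resistant dKO library 1 or 2, where 14.8% and 14.6% of all genes passed, and 4 when the fit held only these 2 groups (18.3%). The 4 HOXC genes were called in all of these. Scaled by library size alone, which shifts the median of all genes by 0.15 on the log2 scale, 7 were higher and 0 lower (23.9% of all genes passed).

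**Figure D2:**
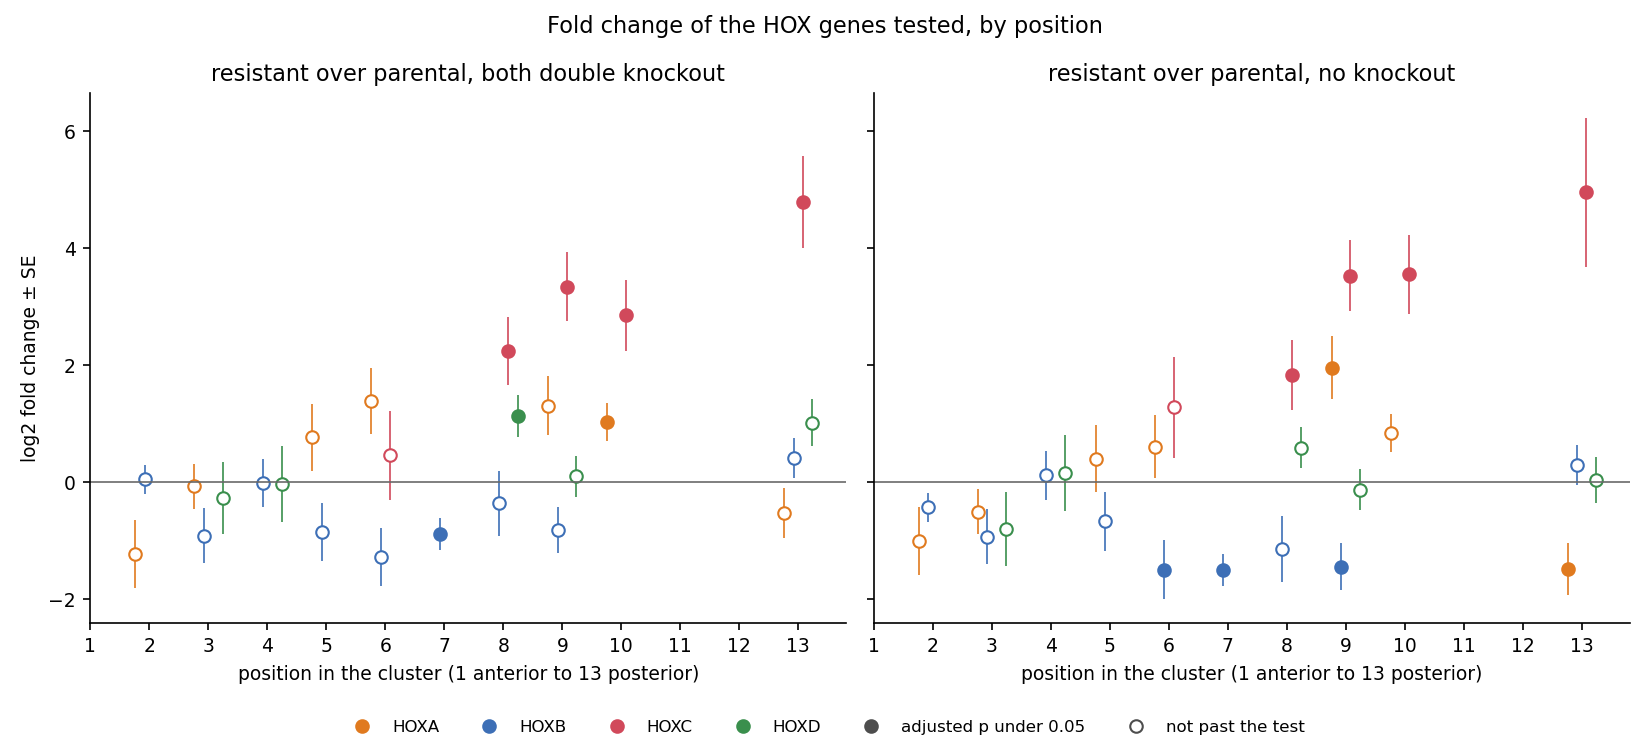
Log2 fold change (± SE) of HOX genes tested against position in the cluster, resistant over parental, for dKO libraries on the left and for libraries without the knockout on the right. Filled points passed an adjusted p of 0.05; filled HOXC points lie at 1.83 or above at positions 8 to 13 in both panels, and most HOXB points lie below 0. The HOXC13 value without the knockout is a fitted one against parental libraries with 0 reads.

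HOXC9 was the highest HOXC gene per length in each group and had the lowest adjusted p of any HOX gene without the knockout. It lies at chr12:53994895-54003337 and takes part in patterning of the thoracic axial skeleton. It measured 10.9, 7.14 and 13.8 CPM in resistant dKO cells, 5.95, 7.68 and 5.73 CPM in resistant cells, 1.90, 0.774 and 0.402 CPM in parental dKO cells, and 0.956, 0.448 and 0.259 CPM in parental cells. The 6 resistant libraries all lay above the 6 parental ones. The log2 fold change was 3.34 ± 0.59 (SE, adjusted p = 0.00169) among dKO cells and 3.53 ± 0.61 (adjusted p = 0.00125) without the knockout.

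HOXC10, the next gene upstream (chr12:53985065-53990279), acts in hindlimb and lumbar patterning. It measured 4.75, 3.66 and 5.99 CPM in resistant dKO cells, 2.16, 3.47 and 2.10 CPM in resistant cells, 1.4, 0.194 and 0.345 CPM in parental dKO cells, and 0.179, 0.256 and 0.207 CPM in parental cells. No resistant library overlapped a parental one, although parental dKO library 1 stood above the other 5 of the parental background. Log2 fold changes were 2.85 ± 0.61 (adjusted p = 0.00555) among dKO cells and 3.55 ± 0.68 (adjusted p = 0.00234) without the knockout.

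HOXC8 (chr12:54009106-54012362) lies on the other side of HOXC9, patterns thoracic vertebrae and forelimb motor neurons in mice, and shares no exonic base with another annotated gene. It measured 3.02, 2.77 and 5.81 CPM in resistant dKO cells and 2.04, 1.95 and 1.84 CPM in resistant cells, against 1.00, 1.03 and 0.402 CPM in parental dKO cells and 0.597, 0.897 and 0.155 CPM in parental cells. Both pairs of groups were separate. The log2 fold change was 2.24 ± 0.58 (adjusted p = 0.0153) among dKO cells. Without the knockout it was 1.83 ± 0.60 (adjusted p = 0.0370), and that call was lost in 8 of 21 alternatives (other scalings, filters, tools, blocks and sets of libraries), with an adjusted p of up to 0.109: without resistant library 1, 2 or 3, parental library 1 or 3, resistant dKO library 1 or 2, or both parental-background libraries numbered 3.

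HOXC13, at the posterior end of the cluster (chr12:53938765-53946544), drives keratin genes of hair and nail. It had 31, 36 and 28 reads in resistant dKO libraries, 3, 6 and 2 reads in resistant libraries, 1, 0 and 2 reads in parental dKO libraries, and 0 reads in the 3 parental libraries. Only the resistant dKO group exceeded 1 CPM, at 1.53, 1.99 and 1.73 CPM. Against 3 counts over the parental group the level in resistant cells was 3.6-fold, with no allowance for counting error in the resistant reads. The adjusted p was 0.0152, and 0.0502 without resistant library 2. HOXC13 passed the filter on low counts through its resistant dKO reads. The fit of resistant and parental libraries alone called 8 HOX genes (27.5% of all genes passed). In it HOXC13 fell below the filter and was not tested. Among dKO cells the ratio was 30.7, with a 95% exact counting interval of 10.2 to 152 (adjusted p = 0.00178).

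The remaining HOXC genes were near the detection limit. HOXC6 measured between 0.445 and 0.741 CPM in resistant dKO cells and 0.292 and 0.670 CPM in resistant cells, against 0.0645 to 0.952 CPM in parental dKO cells and 0.0640 to 0.311 CPM in parental cells, and passed in no contrast. HOXC4 had 21 reads over the resistant dKO libraries and 8 over the resistant libraries, against 1 over the parental dKO and 2 over the parental libraries. The ratio was 20.4 (3.28 to 843) among dKO cells and 3.93 (0.785 to 38.0) without the knockout, and only the first interval excludes 1. Such intervals cover counting error and not the spread between libraries. HOXC5 had 6 and 5 reads over the resistant dKO and resistant groups, against 1 and 1 over the parental dKO and parental groups. HOXC4, HOXC5 and HOXC6 share exons, so reads may move between them, and HOXC9 shares 9.7%, HOXC10 9.8% and HOXC13 7.1% of exonic bases with neighbours or antisense genes.

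**Figure D3:**
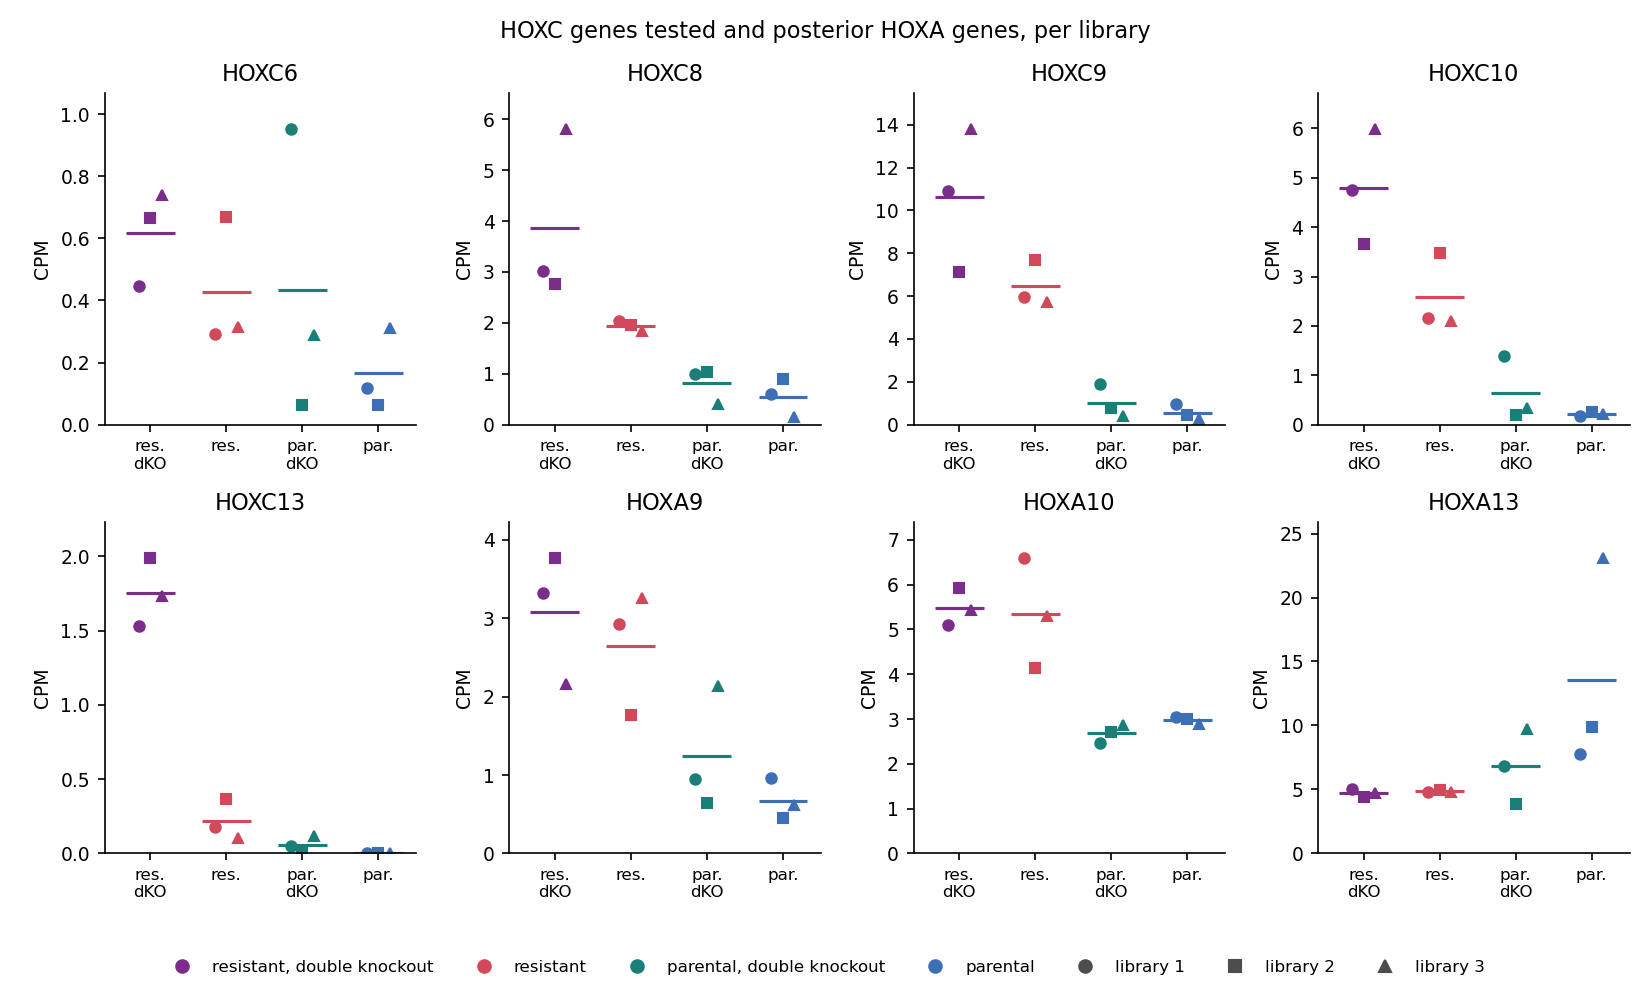
CPM of the 5 HOXC genes tested and 3 posterior HOXA genes in each library, from resistant dKO (left) to parental cells (right), with the bar at the mean of 3 libraries. HOXC8, HOXC9 and HOXC10 are higher in both resistant groups, HOXC13 exceeds 1 CPM in resistant dKO cells alone, and parental library 3 is the highest point for HOXA13.

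Among the noncoding genes of the cluster, HOXC-AS1, antisense within the span of HOXC9, measured 6.29, 5.87 and 3.21 CPM in resistant dKO cells and 2.33, 4.75 and 2.05 CPM in resistant cells, against 1.25, 0.645 and 0.517 CPM in parental dKO cells and 0.119, 0.640 and 0.207 CPM in parental cells. It rose in both comparisons, by a log2 fold change of 2.65 ± 0.61 among dKO cells (adjusted p = 0.00765) and 3.23 ± 0.65 without the knockout (adjusted p = 0.00330). HOTAIR, the noncoding RNA of this cluster known for its link to Polycomb, had 5 reads over the 12 libraries.

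Fibroblast markers were also higher in resistant cells, beside the HOXC genes. Of the 10 markers listed, 7 averaged at least 1 CPM in resistant dKO, 6 in resistant, 3 in parental dKO and 1 in parental cells. Their summed level was 2560 to 4500 CPM in resistant dKO, 361 to 967 CPM in resistant, 2.56 to 28.7 CPM in parental dKO and 1.97 to 8.85 CPM in parental libraries. Most of it in resistant cells was the collagen COL1A1, with means of 3650 and 671 CPM in resistant dKO and resistant cells, against 3.28 and 0.927 CPM in parental dKO and parental cells. DCN was lower in both resistant groups, THY1 averaged at most 0.246 CPM in any group, and no marker was at 0 reads throughout a group. Of 5 mesothelial markers 2 were higher and 1 lower, and of 3 smooth muscle markers tested 2 were higher, in both comparisons (23.9% and 28.0% of all genes passed). The part of these cell type markers in the HOXC levels was not tested. In bulk RNA, fewer cells of a type and less RNA per cell cannot be told apart.

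HOXB7 had the highest HOX level per length in the parental background and was lower in both resistant groups. It averaged 38.8 CPM per kb in resistant dKO and 30.5 in resistant cells, against 71.3 in parental dKO and 86.2 in parental cells, while HOXB2 averaged 38.8 and 34.3 in resistant dKO and resistant cells. HOXB7 (chr17:48607227-48633572) is a central-position gene often overexpressed in carcinomas. It measured 67.0, 43.9 and 67.0 CPM in resistant dKO cells and 39.7, 62.3 and 37.6 CPM in resistant cells, against 105, 90.7 and 132 CPM in parental dKO cells and 136, 118 and 141 CPM in parental cells. All resistant libraries lay below all parental ones. On the log2 scale the fold change was -0.88 ± 0.27 (adjusted p = 0.0326) among dKO cells and -1.50 ± 0.28 (adjusted p = 0.00184) without the knockout. Without the knockout the call held in 21 of 21 alternatives. Among dKO cells it was lost in 8 of 21, with an adjusted p of up to 0.118, including library size alone, only these groups in the fit, and the omission of resistant dKO library 1 or 2, parental dKO library 1 or 3, or both parental-background libraries numbered 3.

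HOXB9 (chr17:48621159-48626356) is the most posterior gene of the main HOXB block and takes part in rib patterning in mice. It measured 51.0, 42.5 and 55.0 CPM in resistant dKO cells and 37.8, 30.6 and 37.3 CPM in resistant cells, against 84.6, 135 and 41.9 CPM in parental dKO cells and 102, 130 and 54.0 CPM in parental cells. The groups without the knockout did not overlap, but the dKO groups did, through parental dKO library 3. HOXB9 fell by 1.44 ± 0.40 on the log2 scale without the knockout (adjusted p = 0.0172, and up to 0.0800 without resistant library 2 or parental library 2). Among dKO cells the value was -0.82 ± 0.39 (adjusted p = 0.146).

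HOXB6 (chr17:48595751-48604992), known from early blood development, measured 37.8, 43.1 and 36.6 CPM in resistant dKO cells and 54.0, 35.3 and 40.3 CPM in resistant cells, against 53.6, 46.7 and 185 CPM in parental dKO cells and 81.7, 83.1 and 200 CPM in parental cells. Library 3 of both parental-background groups stood far above libraries 1 and 2, and in neither comparison did the groups overlap. The log2 fold change was -1.28 ± 0.50 (adjusted p = 0.0774) among dKO cells and -1.49 ± 0.50 (adjusted p = 0.0404) without the knockout. The second was lost without resistant library 1, 2 or 3, parental library 3 or resistant dKO library 2, with an adjusted p of up to 0.155. HOXB6 shares 32.9% of its exonic bases with HOXB3 and the antisense gene HOXB-AS3.

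HOXB2, a hindbrain gene, measured 75.7, 82.1 and 114 CPM in resistant dKO and 70.6, 74.6 and 95.2 CPM in resistant cells, against 67.6, 93.1 and 102 CPM in parental dKO and 104, 112 and 109 CPM in parental cells. The groups without the knockout were separate, yet the difference of -0.43 ± 0.25 did not pass (adjusted p = 0.208). The epithelial markers EPCAM, KRT19, WFDC2, MSLN and CLDN3 were lower beside the HOXB genes in resistant cells, and their part was not tested. Others of the 12 went the other way, KRT8 and KRT18 without the knockout. The 12 summed to 1440 to 1950 CPM in resistant dKO and 1810 to 2610 CPM in resistant libraries. In parental dKO and parental libraries the sum was 509 to 1360 and 632 to 1170 CPM. The other HOXB genes tested (HOXB3, HOXB4, HOXB5, HOXB8 and HOXB13) passed in neither comparison, with log2 fold changes of -0.91 to 0.41 among dKO cells and -1.14 to 0.30 without the knockout.

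The 2 parental-background libraries numbered 3 stood apart in HOXB3, HOXB5, HOXB6, HOXB8 and HOXB9, and not in HOXB2 or HOXB4. HOXB4 measured 61.8 CPM in parental dKO library 3 against 63.2 and 19.4 CPM, and 58.5 CPM in parental library 3 against 47.2 and 21.4 CPM. HOXB3 measured 223 CPM in parental dKO library 3, against 102 and 71.1 CPM in libraries 1 and 2, and 204 CPM in parental library 3, against 127 and 95.5 CPM. HOXB5 measured 64.8 CPM in parental dKO library 3 against 23.7 and 13.9 CPM, and 60.7 CPM in parental library 3 against 32.1 and 20.9 CPM. HOXB8 measured 85.7 CPM in parental dKO library 3 against 26.9 and 25.0 CPM, and 134 CPM in parental library 3 against 44.5 and 44.8 CPM. So HOXB3, HOXB5, HOXB6 and HOXB8 were high together in library 3 of both groups, while HOXB9 was low there. HOXD9 was low there too, at 8.45 CPM against 17.1 and 16.0 CPM in parental dKO cells and 8.28 CPM against 18.3 and 17.6 CPM in parental cells. MEIS1, a TALE cofactor named after its values were seen, was high there, at 21.3 CPM against 6.31 and 6.00 CPM in parental dKO cells and 16.0 CPM against 6.15 and 5.38 CPM in parental cells. With both libraries left out, 7 HOX genes were called without the knockout, where 28.5% of all genes passed, and 6 among dKO cells (26.8%). All 7 had also passed with every library in the fit. Of the 6, HOXA9 and HOXB9 had not, and HOXB7, HOXA10 and HOXD8 no longer passed.

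**Figure D4:**
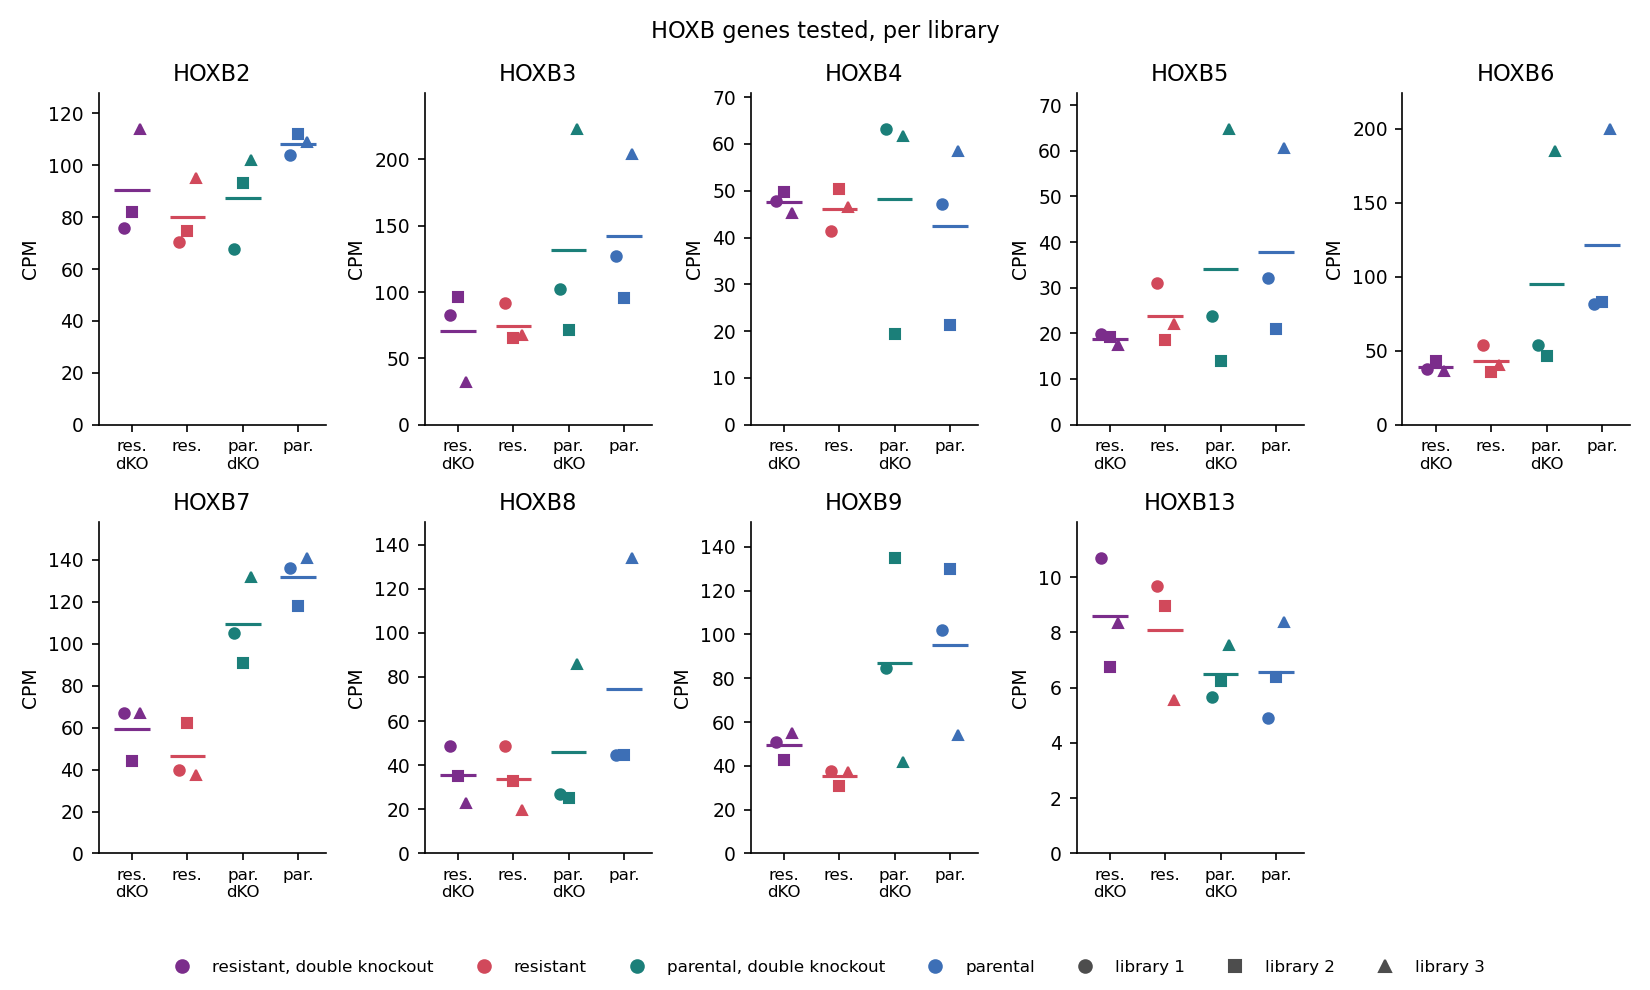
CPM of the 9 HOXB genes tested in each library, from resistant dKO (left) to parental cells (right), with the bar at the mean of 3 libraries and a triangle for library 3. HOXB7 is lower in all resistant libraries, and the triangles of both parental-background groups stand high for HOXB3, HOXB5, HOXB6 and HOXB8 and low for HOXB9.

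Long noncoding genes of the HOXB cluster moved both ways. The interval between HOXB9 and HOXB13 holds AC103702.2, LINC02086 and HOXB-AS4, which rose in both comparisons. AC103702.2 (chr17:48635923-48647023) measured 24.5, 23.5 and 35.2 CPM in resistant dKO cells and 15.9, 20.2 and 23.4 CPM in resistant cells, against 1.75, 3.49 and 2.41 CPM in parental dKO cells and 3.70, 4.48 and 4.76 CPM in parental cells. Its groups did not overlap. The fitted log2 fold change was 3.44 ± 0.34 (adjusted p = 3.2e-05) among dKO cells and 2.20 ± 0.32 (adjusted p = 0.000397) without the knockout. LINC02086 changed by 3.57 ± 0.43 and 2.60 ± 0.40 and HOXB-AS4 by 2.22 ± 0.53 and 1.88 ± 0.51 on the same scale, dKO cells first. The second HOXB-AS4 call was lost without resistant library 1, parental library 2 or 3, or both parental-background libraries numbered 3 (adjusted p up to 0.0639). HOXB-AS3, antisense to exons of HOXB3, HOXB5 and HOXB6, was lower in resistant cells, with 14, 13.8 and 9.57 CPM in resistant dKO and 22.1, 10.8 and 7.83 CPM in resistant cells, against 39.6, 43.4 and 63.1 CPM in parental dKO and 37.9, 40.3 and 85.2 CPM in parental cells. It fell by 1.96 ± 0.42 among dKO cells and 2.01 ± 0.42 without the knockout. Whether counting used the strand of the reads is not given in the sources used here, so reads of HOXB-AS3 and of the HOXB exons opposite it cannot be told apart.

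Further genes listed within the 4 clusters numbered 56: noncoding genes, 3 pseudogenes and the protein-coding PRAC1 and PRAC2. Of these 16 were tested, none of them a pseudogene or protein-coding; 5 were higher and 2 lower among dKO cells, and 4 higher and 3 lower without the knockout, against 23.9% and 28.0% of all genes called. In the HOXD cluster HAGLR measured 2.57, 1.55 and 1.36 CPM in resistant dKO cells and 0.642, 0.792 and 0.788 CPM in resistant cells, against 6.91, 2.84 and 2.64 CPM in parental dKO cells and 4.18, 3.52 and 3.93 CPM in parental cells. It fell by 2.38 ± 0.48 without the knockout (adjusted p = 0.00330), and among dKO cells the value was -1.17 ± 0.45 (adjusted p = 0.0759).

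The posterior HOXA genes split. HOXA9 (chr7:27162435-27175180), known for blood stem cells and leukaemia, measured 3.32, 3.77 and 2.16 CPM in resistant dKO cells and 2.92, 1.77 and 3.26 CPM in resistant cells, against 0.952, 0.645 and 2.13 CPM in parental dKO cells and 0.956, 0.448 and 0.621 CPM in parental cells. Neither pair of groups overlapped, though parental dKO library 3, at 2.13 CPM, was close to resistant dKO library 3. The log2 fold change was 1.31 ± 0.51 (adjusted p = 0.0812) among dKO cells and 1.96 ± 0.54 (adjusted p = 0.0164) without the knockout, and the second call was lost without parental library 2 or 3 (adjusted p up to 0.0719). HOXA10 (chr7:27170591-27180261), needed for uterine development, measured 5.10, 5.93 and 5.44 CPM in resistant dKO cells and 6.60, 4.14 and 5.31 CPM in resistant cells, against 2.46, 2.71 and 2.87 CPM in parental dKO cells and 3.05, 3.01 and 2.9 CPM in parental cells. All resistant libraries lay above all parental ones. Its log2 fold change was 1.03 ± 0.32 (adjusted p = 0.0341) among dKO cells, a call lost in 11 of 21 alternatives (adjusted p up to 0.222), among them the omission of any library of either dKO group and of parental library 1 or 3. Without the knockout it was 0.84 ± 0.32 (adjusted p = 0.0673). HOXA9 and HOXA10 share 27% and 26.3% of their exonic bases with the readthrough gene AC004080.3 and the antisense gene HOXA10-AS.

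HOXA13 (chr7:27193503-27200106), the most posterior HOXA gene and a limb and genital tubercle factor, measured 5.05, 4.43 and 4.76 CPM in resistant dKO cells and 4.84, 4.93 and 4.78 CPM in resistant cells, against 6.81, 3.87 and 9.71 CPM in parental dKO cells and 7.77, 9.86 and 23.1 CPM in parental cells. The 6 resistant libraries were nearly equal, and parental library 3 was the highest of all. HOXA13 fell by 1.48 ± 0.44 without the knockout (adjusted p = 0.0238). That value was -0.88 without parental library 3 and the call was lost, as it was without resistant library 1, 2 or 3 or both parental-background libraries numbered 3 (adjusted p up to 0.125). Among dKO cells it was -0.52 ± 0.43 (adjusted p = 0.410).

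The anterior and central HOXA genes HOXA2, HOXA3, HOXA5 and HOXA6 passed in neither comparison, with log2 fold changes of -1.23 to 1.39 among dKO cells and -1.0 to 0.61 without the knockout. HOXA5, a regulator of lung and stromal tissue, measured 10.9, 6.76 and 4.14 CPM in resistant dKO and 7.65, 6.03 and 3.31 CPM in resistant cells, against 6.76, 1.23 and 4.77 CPM in parental dKO and 5.08, 2.69 and 5.07 CPM in parental cells. These groups overlapped in both comparisons. Per length HOXA5 was the highest HOXA gene in 3 groups, and in parental cells HOXA13 was higher, at 2.67 against 2.51 CPM per kb. Of the genes below the filter, HOXA7 had 2 reads over the resistant and 16 over the parental libraries (parental to resistant ratio 8.14, 1.91 to 73.0), and HOXA11 had 1 read over the resistant and 13 over the parental libraries, a parental over resistant ratio of 13.2 (1.99 to 562).

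In HOXD a single call was made. HOXD8 (chr2:176129694-176132695) measured 20.8, 21.9 and 18.4 CPM in resistant dKO cells and 13.1, 20.2 and 10.7 CPM in resistant cells, against 11.4, 11.0 and 5.57 CPM in parental dKO cells and 9.80, 12.6 and 6.89 CPM in parental cells. The dKO groups did not overlap, and the others did. Its log2 fold change came to 1.13 ± 0.36 (adjusted p = 0.0366) among dKO cells and 0.59 ± 0.35 (adjusted p = 0.237) without the knockout. The dKO call was lost in 7 of 21 alternatives (adjusted p up to 0.108), among them the omission of resistant dKO library 1 or 2, parental dKO library 2 or 3, parental library 1, or both parental-background libraries numbered 3.

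HOXD9, the highest HOXD gene per length in each group and one of the limb genes, measured 16.8, 14 and 13.8 CPM in resistant dKO and 13.7, 15.4 and 11.2 CPM in resistant cells, against 17.1, 16.0 and 8.45 CPM in parental dKO and 18.3, 17.6 and 8.28 CPM in parental cells. Both pairs overlapped, with log2 fold changes of 0.10 ± 0.35 and -0.13 ± 0.35. HOXD3, HOXD4 and HOXD13 did not pass either, at -0.27 to 1.02 among dKO cells and -0.80 to 0.16 without the knockout. HOXD1 and HOXD10, below the filter, averaged between 0.150 and 0.365 CPM in each group. HOXD11, below the filter, had 2 reads over the resistant libraries, against 17 over the parental libraries (parental to resistant ratio 8.65, 2.05 to 77.2). With the knockout it had 19 reads over the resistant dKO libraries, against those 2 over the resistant libraries (ratio 9.17, 2.21 to 81.2).

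RefSeq promoter sequence (GRCh38.p14) was at hand for 20 of the 39 genes. The 250 bases before the RefSeq start are shown for HOXA9, HOXA13 and HOXD8. HOXA9 was called higher and HOXA13 lower in resistant cells without the knockout, and HOXD8 higher among dKO cells. HOXA10, also called, is left out because its window lies over annotated exons. The HOXA13 and HOXD8 windows run a few bases into the GENCODE gene, and the HOXA9 window lies inside the GENCODE span of HOXA9. In the sequences, capitals mark GGGCGG (the core of the GC box), TATAAA and TGATNNAT (a PBX and HOX site), read on both strands. No match overlapped another motif's. The windows are chr7:27165538-27165787 (minus strand) for HOXA9, chr7:27200092-27200341 (minus) for HOXA13 and chr2:176129455-176129704 (plus) for HOXD8.
HOXA9: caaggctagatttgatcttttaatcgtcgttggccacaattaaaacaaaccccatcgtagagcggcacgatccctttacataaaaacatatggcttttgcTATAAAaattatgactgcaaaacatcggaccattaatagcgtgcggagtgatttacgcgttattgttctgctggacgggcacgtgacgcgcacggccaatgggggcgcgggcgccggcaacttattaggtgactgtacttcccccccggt
HOXA13: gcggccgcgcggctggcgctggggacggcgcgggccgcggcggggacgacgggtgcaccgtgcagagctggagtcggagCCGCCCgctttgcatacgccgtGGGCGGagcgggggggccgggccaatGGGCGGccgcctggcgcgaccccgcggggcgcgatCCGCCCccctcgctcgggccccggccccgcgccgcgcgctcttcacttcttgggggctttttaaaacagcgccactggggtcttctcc
HOXD8: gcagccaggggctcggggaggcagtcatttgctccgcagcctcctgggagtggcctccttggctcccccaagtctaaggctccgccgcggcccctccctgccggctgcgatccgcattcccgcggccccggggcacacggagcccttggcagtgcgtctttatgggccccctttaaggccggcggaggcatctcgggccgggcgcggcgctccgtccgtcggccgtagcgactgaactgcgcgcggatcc
HOXA13 held 4 matches to GGGCGG and 40 CG dinucleotides at 78.0% G and C, HOXA9 1 TATAAA and 20 CG at 48.8%, and HOXD8 none of the 3 motifs and 28 CG at 72.4%. The 20 genes had 19 distinct windows, since HOXC4 and HOXC5 share one. Among the 19, 10 held GGGCGG, 4 TATAAA and 3 TGATNNAT, against 42.5%, 10.8% and 6.49% of 34943 distinct RefSeq promoter windows of the same length. The median CG number was 21 in the HOX windows and 11 in all windows. Of the HOX windows 9 were of HOXA, 8 of HOXD, 1 of HOXB (HOXB1) and 1 of HOXC. Their CG medians were 20, 22, 7 and 14, and no called HOXB or HOXC gene was among them.

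Summed per cluster, HOXC was higher and HOXB lower in resistant cells, while HOXA and HOXD overlapped without the knockout. The HOXC sum was 11.1, 8.53 and 15 CPM per kb in resistant dKO cells and 5.83, 7.53 and 5.56 in resistant cells, against 2.59, 1.14 and 0.764 in parental dKO cells and 1.02, 0.905 and 0.464 in parental cells. The ratio of means was 7.70 among dKO cells and 7.93 without the knockout, or 2.95 and 2.99 on the log2 scale. Without the members whose exons overlap another gene these log2 ratios were 2.22 and 1.79. That sum is nearly HOXC8 alone, since only HOXC11 and HOXC12 remain beside it, with 10 and 2 reads over all libraries. It does not check HOXC9, HOXC10 or HOXC13. The HOXB sum was 171, 152 and 166 CPM per kb in resistant dKO cells and 157, 148 and 139 in resistant cells, against 208, 205 and 339 in parental dKO cells and 273, 260 and 377 in parental cells. Its ratio was 0.650 among dKO cells and 0.487 without the knockout, and neither pair overlapped. Among dKO cells the resistant HOXD sum was 1.42-fold the parental one without overlap, and the HOXA sum 1.34-fold with overlap. HOXC then made up 5.55% ± 1.42 of the summed HOX level in resistant dKO and 3.50% ± 0.542 in resistant cells, against 0.601% ± 0.446 in parental dKO and 0.257% ± 0.123 in parental cells (SD, n = 3). HOXB made up 78.7% ± 0.410 and 82.1% ± 1.65 in resistant dKO and resistant cells, against 90.5% ± 3.26 and 91.8% ± 1.85 in parental dKO and parental cells. These sums and shares were not tested.

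By position the anterior share separated the resistant from the parental background, and the posterior share did not. Anterior genes made up 28.7, 34.9 and 33.1% of the summed HOX level in resistant dKO and 30.9, 31.7 and 40.0% in resistant libraries, against 27.3, 25.6 and 26.9% in parental dKO and 26.5, 24.7 and 23.9% in parental libraries. Their summed level itself was lower, with a ratio of 0.906 among dKO cells, where groups overlapped, and 0.745 without the knockout, where they did not. Central genes had ratios of 0.621, with overlap, and 0.441, without. HOXB genes held most of the anterior level in every library, and none of these values was tested. Posterior genes made up 21.7% ± 1.69 of the summed HOX level in resistant dKO and 18.3% ± 0.40 in resistant cells, against 19.3% ± 10.9 in parental dKO and 16.9% ± 7.54 in parental cells (SD, n = 3). The parental libraries spread by number, alike in both groups: 20.7, 29.4 and 7.85% in parental dKO libraries 1, 2 and 3 and 18.6, 23.5 and 8.67% in the same-numbered parental libraries. Resistant libraries lay between 18.0 and 23.5%, inside that range. Within HOXC the posterior sum was 9.13 ± 2.45 CPM per kb in resistant dKO and 5.05 ± 1.01 in resistant cells, against 0.929 ± 0.731 in parental dKO and 0.433 ± 0.192 in parental cells. Within HOXB the posterior sum was 21.7 ± 2.85 and 16.0 ± 1.49 in resistant dKO and resistant cells, against 35.7 ± 18.0 and 38.9 ± 14.6 in parental dKO and parental cells. Central genes of HOXB summed to 80.4 ± 10.3 and 75.2 ± 13.1, against 147 ± 73.0 and 188 ± 66.7 in the same order.

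**Figure D5:**
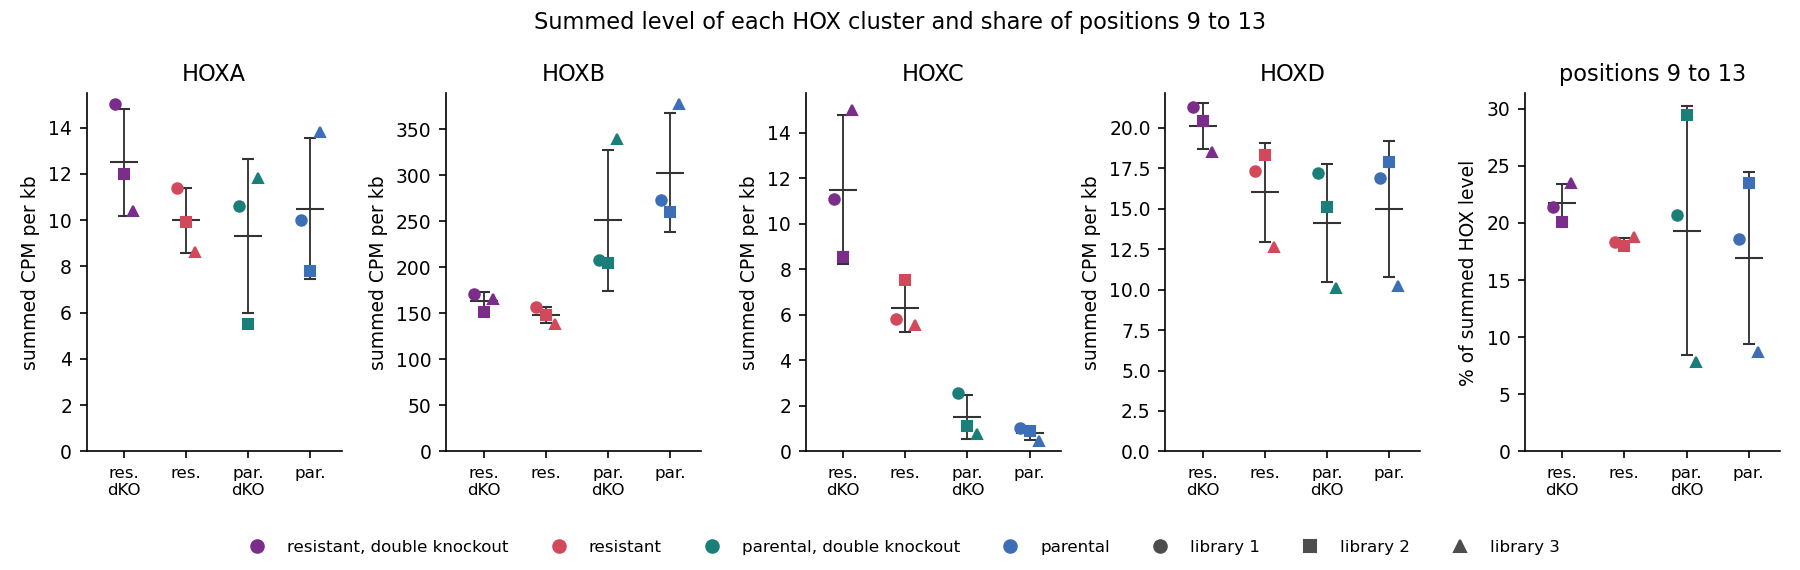
Summed CPM per kb of each HOX cluster and the percentage of the summed HOX level in positions 9 to 13, per library, from resistant dKO (left) to parental cells (right), with black bars for the mean ± SD of 3 libraries. HOXC is higher and HOXB lower in all resistant libraries, and the posterior share in parental-background libraries runs from 7.85 to 29.4%.

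The knockout called no HOX gene in parental cells. By edgeR 0 of 27 passed, against a background of 0% of 17947, and 3 reached an unadjusted p under 0.05 (3.00% of all genes did); DESeq2 and limma-voom also called 0 (0.0613% and 0.00557% of all genes passed). The fitted values were above 0 for 9 genes and below 0 for 18, with a median of -0.09, against 0.02 over all genes. Replicate numbers paired the libraries in this background. With the number as a block within each background 0 HOX genes passed (0.858% of all genes did). With the block in a fit of these 2 groups alone, chosen after the data were seen, 2 of 23 passed, a share close to the 7.58% of all genes that did. HOXB8, with 26.9, 25.0 and 85.7 CPM in parental dKO cells against 44.5, 44.8 and 134 CPM in parental cells of the same number, was lower in each pair. Its log2 fold change was -0.72 ± 0.11 (adjusted p = 0.00446) in the fit of 2 groups and -0.74 ± 0.17 (adjusted p = 0.0593) in the block within backgrounds. HOXA13 was lower in each pair too, at -0.92 ± 0.24 (adjusted p = 0.0434) and -0.93 ± 0.26 (adjusted p = 0.139). HOXB6 and HOXB7, also lower in each pair, did not pass in that fit (adjusted p = 0.0516 and 0.145). Set pair by pair, the summed HOXB level was lower and the summed HOXC level higher in all 3 parental dKO libraries than in the parental library of the same number, and these sums were not tested.

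In resistant cells edgeR's test of the knockout called 0 of 27 HOX genes, against a background of 0.212%, and 2 reached an unadjusted p under 0.05 (7.95% of all genes did). Fitted values were above 0 for 21 genes and below 0 for 6, with a median of 0.22, against 0.04 over all genes. The nearest to the threshold was HOXC13, with 31, 36 and 28 reads in resistant dKO libraries, against 3, 6 and 2 reads in resistant libraries. These groups were far apart (log2 fold change 3.00 ± 0.67, adjusted p = 0.144, with 0.00146 to 0.436 over 23 alternatives), and the gene was called higher in dKO cells by DESeq2, by limma-voom, and by edgeR when every gene with 1 count was kept. In those fits 1.39%, 0.245% and 1.09% of all genes passed. HOXC13 entered the DESeq2, limma-voom and main edgeR fits only through its resistant dKO reads, so its entry depended on the group called higher. The adjusted p of 0.00146 came from an edgeR fit with a block by library number, a pairing not adopted in this background. The other HOXC genes tested were 0.53 to 0.99 higher on the log2 scale and did not pass. The summed HOXC level was 1.83-fold that of resistant cells, without overlap. In parental dKO against parental cells it was 1.88-fold, where the groups overlapped and each pair of the same number had the dKO library higher. In resistant cells the knockout groups were also apart for the sums of HOXD (1.25-fold), posterior genes (1.36-fold) and all HOX genes (1.15-fold). The HOXA (1.25-fold) and HOXB (1.10-fold) sums overlapped there, and none of these sums was tested. For HOXD13, the limb gene at the end of its cluster, dKO libraries held 4.65, 4.60 and 7.04 CPM, against 4.09, 2.86 and 2.37 CPM in resistant libraries (0.80 ± 0.40, adjusted p = 0.650). The test of the difference between the knockout effects of the 2 backgrounds called 0 HOX genes, against a background of 0.0279%, and 0 reached an unadjusted p under 0.05 (3.78% of all genes did); DESeq2 and limma-voom called 0 too (0.373% and 0.0279% of all genes passed).

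Genes that work with or on HOX genes were read from lists of known factors. Of 9 TALE cofactors 5 were higher and 1 lower in resistant cells among dKO libraries, and 3 higher and 1 lower without the knockout, against 23.9% and 28.0% of all genes called. MEIS3 averaged 83.8 and 65.2 CPM in resistant dKO and resistant cells, against 7.77 and 8.55 CPM in parental dKO and parental cells, with log2 fold changes of 3.43 ± 0.65 among dKO cells and 2.93 ± 0.64 without the knockout. PKNOX1 was the lower gene, at -0.92 ± 0.28 and -1.10 ± 0.28. Its call was lost without resistant library 2 in the second comparison (adjusted p = 0.0532), and in 7 of 21 alternatives among dKO cells, those without resistant dKO library 1 or 2 or parental dKO library 2 or 3 among them (adjusted p up to 0.120). The list's median log2 fold change was 0.79 among dKO cells and 0.59 without the knockout.

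Of 27 Polycomb genes 3 were higher and 2 lower among dKO cells, and 3 higher and 4 lower without the knockout, shares below the 23.9% and 28.0% of all genes called, with medians of 0.09 and -0.03. The chromobox genes CBX2, CBX7 and CBX8, whose proteins read trimethylated lysine 27 of histone H3, were higher in both, CBX2 by 2.11 ± 0.42 and 1.78 ± 0.41 on the log2 scale. PCGF5 fell by 1.77 ± 0.27 and 2.01 ± 0.27, dKO cells first. PHC2 fell by 1.53 ± 0.45 and 1.80 ± 0.46, calls lost without resistant dKO library 1 or 2 or parental dKO library 2 (adjusted p up to 0.162) and without parental library 2 (0.0564). CBX7 calls were lost in 9 and 4 of 21 alternatives, with an adjusted p of up to 0.149 and 0.0786, among them the omission of resistant library 2 in each comparison. Of 21 Trithorax and COMPASS genes, which include lysine 4 methyltransferases, 2 were higher and 2 lower in both comparisons, again below those background shares. MLLT3 rose by 2.26 ± 0.32 and 1.82 ± 0.31 and the menin gene MEN1 by 0.71 ± 0.23 and 0.76 ± 0.23, while KMT2C fell by 0.79 ± 0.26 and 0.82 ± 0.26 and SETD1B by 0.87 ± 0.27 and 0.91 ± 0.27, dKO cells first. The MLLT3 calls held in all 21 alternatives, while MEN1, KMT2C and SETD1B lost theirs in 12, 10 and 9 of 21 among dKO cells and 5, 8 and 6 without the knockout (adjusted p up to 0.197), with omission of resistant dKO library 2 among the first and parental library 2 among the second for each.

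Retinoic acid switches on HOX genes in embryos, and 16 of 20 genes of its pathway were tested. Of the 16, 8 were higher and 1 lower among dKO cells, where 13.6% of all genes were higher and 10.2% lower, and 6 were higher and 2 lower without the knockout, where 15.2% were higher and 12.8% lower. The median log2 fold change was 0.86 and 0.92, against 0 and 0.02 over all genes. RARB, a retinoic acid receptor, averaged 5.54 and 6.92 CPM in resistant dKO and resistant cells, against 0.129 and 0.140 CPM in parental dKO and parental cells (5.33 ± 0.64 and 5.59 ± 0.64). ALDH1A3, which makes retinoic acid, averaged 13.2 and 12.0 CPM, against 0.992 and 0.689 CPM (3.72 ± 0.43 and 4.12 ± 0.44). Its relative ALDH1A2 averaged 0.514 and 0.223 CPM, against 2.71 and 2.25 CPM, and fell by 2.38 ± 0.63 and 3.28 ± 0.69; the first call was lost without resistant dKO library 1 or 2 or parental dKO library 2 (adjusted p up to 0.0676). ALDH1A1, of the same family, averaged 142 and 113 CPM, against 0.110 and 0.0372 CPM, with 5897 reads over the resistant and 2 over the parental libraries (ratio 2900, 802 to 23900). NR2F1, a retinoic acid target, rose by 2.62 ± 0.53 among dKO cells and 4.02 ± 0.56 without the knockout.

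Of 12 Müllerian and urogenital factors 10 were tested, and 3 were higher and 1 lower among dKO cells and 4 higher and 2 lower without the knockout, against 23.9% and 28.0% of all genes called. GATA4 averaged 14.4 CPM in resistant dKO cells, 255-fold the level of 3 counts over the parental dKO group, which had no read. It averaged 15.2 CPM in resistant cells, against 0.220 CPM in parental cells. PAX2, a kidney and duct factor, averaged 4.21 CPM in resistant cells, 71.1-fold the level of 3 counts over the parental group, which had no read. WT1 averaged 2.23 and 0.993 CPM in resistant dKO and resistant cells, against 0.217 and 0.0398 CPM in parental dKO and parental cells, with a ratio of 26.5 (7.00 to 225) for 54 reads against 2 without the knockout. WNT4 averaged 3.21 and 9.29 CPM, against 0.930 and 1.41 CPM, and passed without the knockout and not among dKO cells (1.78 ± 0.65 among dKO cells and 2.71 ± 0.65 without it). The difference between those fold changes, -0.93 ± 0.89, did not pass (adjusted p = 1). WNT7A, needed in mice to keep Hoxa genes active in the uterus, averaged 16.6 and 16.5 CPM in resistant dKO and resistant cells, against 107 and 193 CPM in parental dKO and parental cells (-2.69 ± 0.87 and -3.54 ± 0.90). The first of these calls was lost in 9 of 21 alternatives, those without resistant dKO library 1, 2 or 3, resistant library 2 or 3 or parental dKO library 3 among them (adjusted p up to 0.338). Of 9 ParaHox and cluster-linked homeobox genes 2 were tested and 0 called.

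The nearest protein-coding genes counted, 3 on each side of each cluster, served as a comparison. They lay 9.0 to 1036.7 kb from their cluster, so not all are close neighbours. Of 21 tested of 24, 4 were higher and 0 lower among dKO cells, and 2 higher and 3 lower without the knockout, shares below the same 23.9% and 28.0%, with medians of 0.08 and -0.29. LNPK, 90.1 kb from the HOXD cluster, rose by 1.54 ± 0.32 without the knockout. TTLL6, 33.1 kb from HOXB, rose by 3.10 ± 0.59 among dKO cells, and these calls held in all 21 alternatives. HIBADH, 325.3 kb from HOXA, fell by 1.45 ± 0.37 without the knockout (adjusted p = 0.0109, and 0.0557 without parental library 2). No gene flanking HOXC was called in either comparison. In none of these lists did a gene pass in either knockout comparison, against backgrounds of 0 and 0.212%.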

How the data were processed

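RNA sequencing of 12 libraries (4 groups of 3) was deposited as 1 table of raw counts per gene, which the authors made with featureCounts 2.0.1 after trimming in Trim Galore 0.6.10 and alignment to GRCh38 in STAR 2.7.10a, per the submitters' processing notes. Which annotation, strand setting and multi-mapping rule were used is not given in the sources used here; the library kit was directional, per the labels. A second copy of the table held equal values in all cells. Of 59542 rows, 44 identifiers stood on 2 rows, all without reads. Gene positions and exonic lengths came from GENCODE release 29 (57380 of 59498 identifiers), and 25 of the 39 HOX genes share exonic bases with another gene, 19 with an antisense one, so counts could be split or lost there.

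Counts were tested with edgeR 4.0.16 (R 4.3.3): TMM scaling, filterByExpr, a robust quasi-likelihood fit over all 12 libraries, and Benjamini-Hochberg adjustment over 17947 genes at 0.05; every adjusted p is from that test unless another is named. The contrasts were resistant against parental, with and without the knockout, knockout against none in each background, and the difference of the knockout effects. The steps were tested on simulated data. CPM were computed from effective library sizes. Totals limit low genes: 3 counts over a group equal 0.0551 to 0.0581 CPM, and 95% exact intervals cover counting error only. Counts of replicates differed by more than sampling noise in every group. DESeq2 1.42.0, limma-voom (limma 3.58.1), other scalings, filters, sample sets, replicate blocks and omissions were alternatives. Same-numbered libraries of the parental background deviated together (r = 0.73, 0.87 and 0.85, against -0.57 to -0.22 for unlike numbers), so these numbers were taken as pairs from the data; in the resistant background r was 0.60, -0.27 and 0.71, and they were not.

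Named genes: HOX genes past the test and the 2 highest per cluster with all libraries, the others by ranges; from each further list up to 6 called genes by adjusted p with a group mean of at least 1 CPM. A few genes that fall under this rule are not reported here or drawn in the figures, though counts, medians and sums include them. The members and lists were chosen with earlier results of these data known. Figures were drawn with matplotlib 3.10.9.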

Additional observations from a re-analysis of the deposited data

How the results depend on the processing

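The direction of every called HOX value was kept under all alternatives run. The count of 9 HOX genes called without the knockout ran from 4 to 9 with 1 library left out, and was 4 without resistant library 2 and 5 without parental library 3. The count of 7 among dKO libraries ran from 4 to 7, with 4 without resistant dKO library 1 or 2 and 4 when only the groups compared were fitted. For the knockout in resistant cells, 1 gene (HOXC13) passed in place of 0 with no filter beyond 1 count, with DESeq2, with limma-voom and with a replicate block within each background (log2 fold change 3.05, adjusted p = 0.00721), where 1.09%, 1.39%, 0.245% and 5.23% of all genes passed, as it did with the replicate block in the fit of 2 groups alone (3.03, adjusted p = 0.00146, 4.09% of all genes), which was chosen after the data were seen. In parental cells that last fit called 2 of 23, near the 7.58% of all genes. Both of these block fits pair resistant libraries by number, which was not adopted for that background (r = 0.60, -0.27 and 0.71). Except with no filter beyond 1 count, HOXC13 entered all these fits through its resistant dKO reads. The difference of the knockout effects gave 0 throughout, and the block changed no other call by more than 1.5 times. Without members whose exons overlap another gene, the log2 ratio of the summed HOXB level was -1.36 in place of -1.04 without the knockout. For the knockout in resistant cells it was 0.31 in place of 0.14. For HOXC it was 1.79 in place of 2.99 without the knockout, and 2.22 in place of 2.95 among dKO libraries. That reduced HOXC sum is nearly HOXC8 alone. The posterior share differed by 1.43 percentage points without the knockout, 2.34 among dKO libraries and 3.35 for the knockout in resistant cells; with positions 5 to 13 as 1 class these were -9.18, -5.65 and 1.96, and the last was 0.75 without overlapping members. With 1 library left out the ranges were -2.69 to 4.71, -3.40 to 7.39 and 2.46 to 4.13, and -2.61 to 8.18 around 2.44 for the knockout in parental cells. The causes were not tested. Depth limits the 12 HOX genes below the filter, and HOXC13, HOXC4 and HOXC6.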
